A study of Rattus norvegicus with 287 samples.

Results

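Cytochrome P450 enzymes of families 1 to 4, the haem monooxygenases that oxidise drugs, steroids and fatty acids, were followed through liver, kidney and intestine of rats given focused ultrasound or a sham treatment. Members were all genes whose symbol in the deposited count table is Cyp followed by a family number from 1 to 4, a subfamily letter and a gene number. This rule used no measured value and took 51 of the 32623 genes, 3 of family 1, 29 of family 2, 3 of family 3 and 16 of family 4. A further 20 P450 symbols were of other families or forms and were not members. The familiar rat genes Cyp2a2, Cyp2b1, Cyp2c6, Cyp2j3 and Cyp3a2 were not among the 51, as the count table had no gene under those symbols. Shares of P450 counts below are shares of the members' counts and leave these genes out.

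The study covered 287 RNA sequencing libraries of 8 tissues. Obese Zucker diabetic fatty (ZDF) rats, which lack a working leptin receptor, and lean Zucker rats were treated for 7 weeks with peripheral focused ultrasound (pFUS) or sham. The stimulus was aimed at the porta hepatis, where vessels and nerves enter the liver, for 3 minutes at 1.1 MHz, with 200 mV per pulse, 150 burst cycles and a burst period of 500 µs. Sham rats had the probe without energy, and every rat was under isoflurane. Liver and intestine came from 5 obese control, 5 obese pFUS and 5 lean control rats, with 5 lean pFUS livers and 3 lean pFUS intestines, and kidney from 5 obese control and 5 obese pFUS rats. In a 3-day experiment 4 obese ZDF livers each were labelled control, AM only x1 and AM only x10, called x1 and x10 here. Another 4 obese ZDF livers each came from 4 weeks of pFUS labelled AM & PM x1, AM only x10 and AM & PM x10, with no control of their own. All of these rats were male, and the labels give no age. DIO-stz rats, a model named for diet-induced obesity with streptozotocin, gave 2 female and 2 male controls and, with pFUS, 4 males and 1 female. A further 2 females were labelled DIO Diet Resistant and had pFUS. Within a tissue no rat gave more than 1 library, so the spread behind each test is that between rats, and the tissues came from the same rats.

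P450 enzymes sit in the endoplasmic reticulum and take electrons from P450 oxidoreductase, encoded by Por, and from cytochrome b5. Families 1 to 3 mostly handle drugs, toxins and steroids under the receptors AhR, CAR and PXR, while family 4 hydroxylates fatty acids and eicosanoids and is induced by PPAR alpha. In rat liver several members are set by sex through growth hormone, which is released in pulses in males and more evenly in females, with STAT5b, HNF6 and CUX2 as its nuclear readers.

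A library can stand apart from its group. The lean control 15 liver differed from its group's median profile by a root mean square of 1.12 log2 units, against 0.270 to 0.334 for the other lean controls, and was closer to the lean pFUS median (0.656). The intestine of the same rat was at 0.536 from the lean control median and 0.268 from the lean pFUS median. Other livers far from their own group were lean pFUS 16, 17 and 20 (0.666, 0.643 and 0.540), obese control 2 (0.495) and obese pFUS 7 (0.484, the other obese pFUS livers being at 0.276 to 0.290). Each of these stayed nearest to its own group. The liver of obese control 3 was at 0.455, and that of obese control 5 was nearer to the obese pFUS median (0.402) than to its own (0.431). Among intestines, obese control 1 was nearer to the lean control median (0.598) than to its own (0.663). Obese controls 4 and 5 were nearer to the lean pFUS median (0.424 and 0.372) than to their own (0.435 and 0.438). The kidney of obese control 2 was at 0.977, against 0.564 to 0.684 for the other control kidneys, and, like those of controls 1, 4 and 5, nearer to the pFUS median. Results that rest on lean control 15 are given with and without it. Leaving out lean pFUS 16, 17 or 20 alone called no member for pFUS in lean liver, nor did leaving out the obese control 2 kidney in the kidney comparison. Intestines also differed in position along the gut: the ileal gene Fabp6 was above 1000 CPM (counts scaled to a common library total) in obese control 1 (5687), lean control 11 (8719.5) and lean control 14 (14139.9). Without those 3 libraries no member passed in any intestine comparison, as with all of them. Hepatocyte markers were at 118985 to 204666 CPM with a median of 151028 in obese control livers. Proximal tubule markers were at 5313 to 13518 CPM with a median of 10480.0 in the kidneys, and enterocyte markers at 10824 to 24517 CPM with a median of 12757 in the intestines. Total counts ran from 6507872 to 43088790 in liver, 8196905 to 20784994 in kidney and 9411372 to 19041490 in intestine.

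The start regions of 6 members that carry the main liver results are shown first, each as the 250 bases before the gene's annotated start, 5′ to 3′ on the gene's strand. They were taken from RefSeq (GRCr8), which is not the build the counts were made on. Capitals mark matches, on either strand, to TTCNNNGAA (STAT5), ATCAAT (HNF6 and CUX2), TTGCNNAA (C/EBP and PAR bZIP factors), TTATNTAA (D-box), AGGTCA (nuclear receptor core) and TATAAA (core promoter box). The fatty acid hydroxylases shown are Cyp4a8 at chr5:133970227-133970476 on the minus strand, Cyp4a3 at chr5:134352237-134352486 on the minus strand and Cyp4a2 at chr5:134170909-134171158 on the minus strand.

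Cyp4a8: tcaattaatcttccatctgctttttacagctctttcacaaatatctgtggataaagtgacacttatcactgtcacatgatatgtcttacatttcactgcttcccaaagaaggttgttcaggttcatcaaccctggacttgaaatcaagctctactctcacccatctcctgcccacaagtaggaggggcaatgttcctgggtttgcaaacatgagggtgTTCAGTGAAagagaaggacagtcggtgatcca

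Cyp4a3: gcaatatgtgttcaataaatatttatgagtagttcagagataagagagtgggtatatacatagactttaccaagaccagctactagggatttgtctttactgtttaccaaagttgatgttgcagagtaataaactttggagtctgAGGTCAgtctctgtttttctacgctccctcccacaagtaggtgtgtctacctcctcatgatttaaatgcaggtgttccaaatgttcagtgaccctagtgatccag

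Cyp4a2: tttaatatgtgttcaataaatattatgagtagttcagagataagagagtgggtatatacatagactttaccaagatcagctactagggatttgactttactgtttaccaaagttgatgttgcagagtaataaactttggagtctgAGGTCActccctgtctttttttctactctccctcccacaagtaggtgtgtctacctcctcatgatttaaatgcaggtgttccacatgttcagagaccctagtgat

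The Cyp4a2 and Cyp4a3 windows were 66.8% identical without gaps, and each had AGGTCA at positions -105 to -100 counted back from the start. Cyp4a8 had the STAT5 letters at -32 to -24. The sex-dependent liver forms shown are Cyp2c7 at chr1:247966144-247966393 on the plus strand, Cyp2c11 at chr1:246174966-246175215 on the plus strand and Cyp2c12 at chr1:248677035-248677284 on the minus strand.

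Cyp2c7: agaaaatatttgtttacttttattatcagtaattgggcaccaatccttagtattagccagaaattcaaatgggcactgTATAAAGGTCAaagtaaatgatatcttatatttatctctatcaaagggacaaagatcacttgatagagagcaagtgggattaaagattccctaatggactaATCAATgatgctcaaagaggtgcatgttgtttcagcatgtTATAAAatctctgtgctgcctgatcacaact

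Cyp2c11: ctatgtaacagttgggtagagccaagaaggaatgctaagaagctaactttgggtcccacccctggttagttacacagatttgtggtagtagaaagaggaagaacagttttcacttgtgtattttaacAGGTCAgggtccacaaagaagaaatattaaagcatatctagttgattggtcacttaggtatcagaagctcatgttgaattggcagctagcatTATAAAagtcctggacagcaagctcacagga

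Cyp2c12: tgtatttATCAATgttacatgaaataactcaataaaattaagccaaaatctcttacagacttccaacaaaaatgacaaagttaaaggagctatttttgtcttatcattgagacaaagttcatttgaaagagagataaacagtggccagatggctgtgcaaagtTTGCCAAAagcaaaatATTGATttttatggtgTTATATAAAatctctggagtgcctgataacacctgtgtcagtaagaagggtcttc

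Cyp2c7 had AGGTCA at -167 to -162, sharing a base with a TATAAA at -172 to -167, and ATCAAT at -71 to -66. Cyp2c12 had ATCAAT letters at -243 to -238 and, on the other strand, at -71 to -66, TTGCCAAA at -87 to -80, and a D-box at -55 to -48 that overlaps its TATAAA. Cyp2c11 had AGGTCA at -123 to -118. Of the 51 members, 45 had a window in the table of 27457. AGGTCA was in 14 of the 45 and in 13.7% of all windows, TTGCNNAA in 12 and 9.20%, ATCAAT in 6 and 6.99%, TTCNNNGAA in 4 and 7.52%, TTATNTAA in 3 and 3.00%, and TATAAA in 13 and 13.1%. The AhR core GCGTG, in 12 and 27.2%, and CCAAT, in 24 and 34.3%, were also searched and are not capitalised. These are matches of letters, not binding sites.

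The members divided between the tissues, as the plot of levels by tissue shows. In 7-week obese controls 38 members averaged at least 1 CPM in liver, 26 in kidney, 26 in intestine, 23 in adipose tissue, 18 in brain, 13 in muscle, 5 in pancreas and 3 in blood. Pancreas and adipose libraries came from another kit, and levels across tissues are relative to each library's total. No tissue reached 1 CPM for 7 members, namely Cyp2ab1, Cyp2b12, Cyp2b15, Cyp2b21, Cyp2g1, Cyp2j16 and Cyp2w1, and 2 of these, Cyp2b15 and Cyp2g1, had no count in any library. Of the other 44, the highest mean was in liver for 21, intestine for 13, adipose tissue for 5, kidney for 3, brain for 1 and muscle for 1. The brain member was Cyp4x1 (16.1 CPM, at most 0.101 in any other tissue), known as a neuronal P450.

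**Figure D1:**
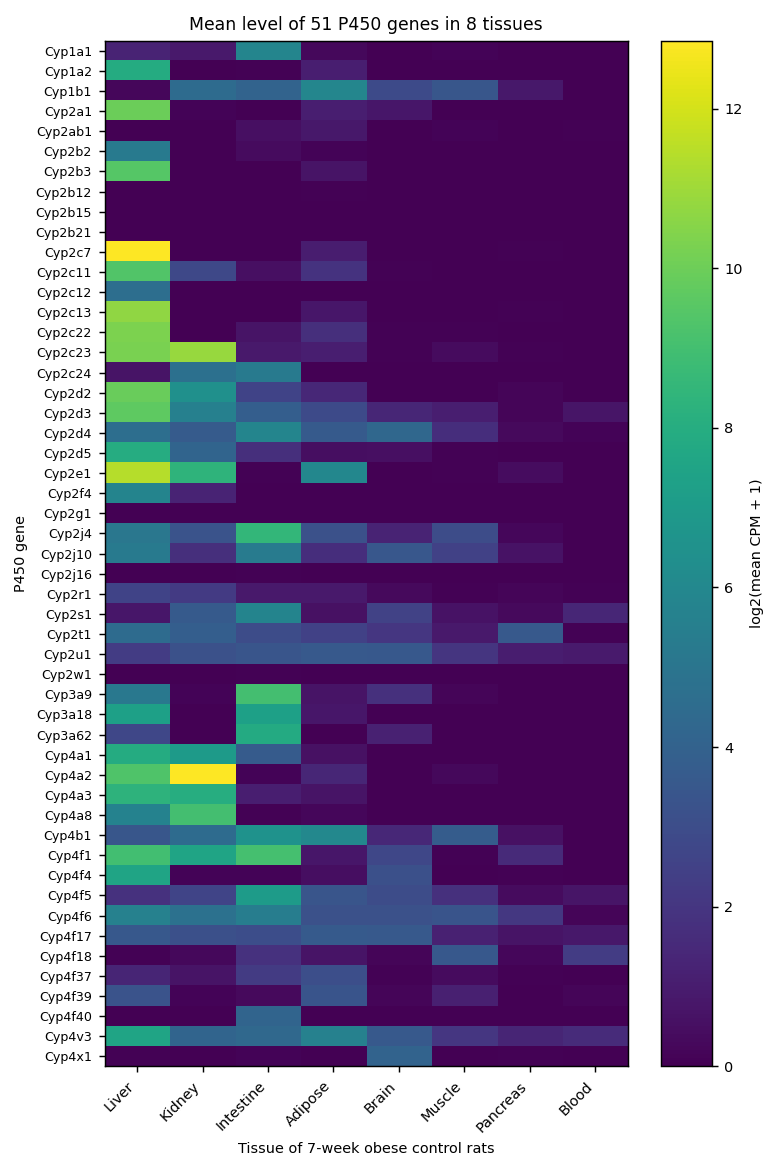
Mean CPM of the members in 7-week obese control rats by tissue, with colour for log2 of the mean CPM plus 1 and a row for each of the 51 members. Most Cyp2c genes stood out in liver. The highest member was Cyp4a2 in kidney (7377 CPM) and Cyp4f1 in intestine (532 CPM), where Cyp3a9 came next (512 CPM).

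Members together took 2.16% ± 0.340 (SD, n = 5) of all counts in obese control liver, 1.10% ± 0.426 in kidney and 0.243% ± 0.0654 in intestine. In liver Cyp2c7, which hydroxylates retinoic acid and is female-predominant, held 34.1% of the P450 counts and the ethanol oxidase Cyp2e1 12.8%. In kidney Cyp4a2, an omega-hydroxylase that makes 20-HETE from arachidonic acid, held 66.9% and the arachidonic acid epoxygenase Cyp2c23 17.2%. In intestine the leukotriene hydroxylase Cyp4f1 held 21.9%, the drug oxidase Cyp3a9 21.1% and the arachidonic acid epoxygenase Cyp2j4 14.9%. Counts are not divided by gene length, so these shares weigh long transcripts more. The counting program splits reads that several genes share, so values of near-identical genes (Cyp4a2 with Cyp4a3, and those within Cyp2c, Cyp2d and Cyp3a) are less certain.

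Tissue choice differed within subfamilies. Cyp4a2 and Cyp4a8 averaged 7377 and 517 CPM in kidney and 632 and 51.0 in liver, while Cyp4a1 was 128 and 235. Cyp2c23 was 1895 CPM in kidney and 1240.1 in liver, the other liver Cyp2c genes at most 5.87 in kidney apart from Cyp2c24 (26.0). In the Cyp3a subfamily, Cyp3a62 was 233 CPM in intestine and 5.59 in liver, whereas Cyp3a18 was at 157 and 156. Of the AhR-regulated family 1, Cyp1a2 was 239 CPM in liver, Cyp1a1 56.3 in intestine and Cyp1b1 59.2 in adipose tissue.

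Livers of obese ZDF and lean Zucker controls, both sham treated for 7 weeks, were compared. Here and in intestine the named model, leptin receptor genotype, obesity and diabetes go together and cannot be told apart. Fatty acid hydroxylases of the Cyp4a subfamily and Cyp2c7 rose, and the male-predominant Cyp3a18, Cyp1a2 and Cyp2t1 fell. Of 40 members tested, 8 rose and 5 fell at an adjusted p under 0.05 (edgeR's quasi-likelihood test, Benjamini-Hochberg over all genes tested), and 27 did not pass. The share of members that passed can be read against 14.3% of all genes tested, 8.14% higher and 6.15% lower. The members' median log2 fold change was -0.27 against -0.04 for all genes tested. In bulk tissue, fewer cells of a type and less RNA per cell cannot be told apart.

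**Figure D2:**
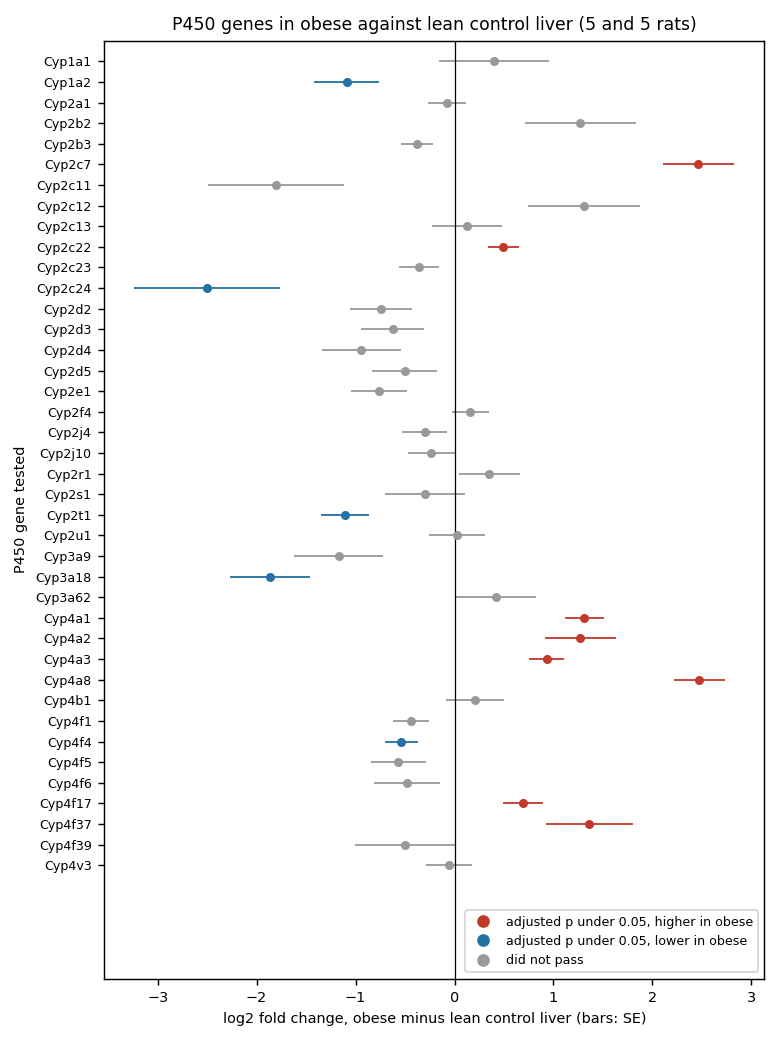
Log2 fold change of each tested member, obese over lean control liver, with bars of 1 standard error, red and blue for members that rose or fell and grey for those that did not pass. Cyp4a8 (2.48) and Cyp2c7 (2.47) rose most, and Cyp2c24 (-2.50) and Cyp3a18 (-1.86) fell most among those that passed.

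All 4 Cyp4a genes, omega-hydroxylases of fatty acids, rose. Cyp4a8 (ENSRNOG00000008842) was 51.6, 32.3, 56.2, 52.1 and 62.8 CPM in the obese control livers and 5.91, 9.86, 11.2, 8.46 and 9.67 in the lean. Its means were 51.0 ± 11.4 and 9.02 ± 1.99 CPM (SD, n = 5 each; log2 fold change 2.48 ± 0.26, adjusted p = 2.15e-06), with every obese library above every lean one. Cyp4a1 (ENSRNOG00000009597), the clofibrate-induced form, was 288, 141, 325, 193 and 228 CPM in obese and 85.5, 132, 91.8, 75.1 and 86.7 in lean livers (log2 fold change 1.31 ± 0.20, adjusted p = 1.49e-04). The groups again did not overlap, with the nearest values in obese control 2 and lean control 12. Cyp4a3 (ENSRNOG00000009741) was 332, 272, 389, 281 and 319 CPM in obese livers, and in lean ones 155, 217, 181, 116 and 166 (log2 fold change 0.93 ± 0.18, adjusted p = 0.00133), also without overlap. Cyp4a2 (ENSRNOG00000030154) was 363, 394, 1365, 565 and 472 CPM in obese against 184, 446, 312, 123 and 245 in lean livers (log2 fold change 1.27 ± 0.36, adjusted p = 0.0213). Its groups overlapped, and obese control 3 held the highest value: without that library the log2 fold change was 0.80 with adjusted p = 0.102. The call was also lost without lean control 11 (adjusted p = 0.0574) or 14 (0.0513).

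Other fatty acid and eicosanoid P450s moved less. The leukotriene hydroxylase Cyp4f4 (ENSRNOG00000032895) fell, from 263 ± 10.7 CPM in lean to 183 ± 33.6 in obese livers (log2 fold change -0.54 ± 0.17, adjusted p = 0.0347), without overlap. Of the less studied forms Cyp4f17 (ENSRNOG00000062306) and Cyp4f37 (ENSRNOG00000048450) rose, to 10.6 ± 2.35 from 6.66 ± 1.61 CPM (log2 fold change 0.69 ± 0.20, adjusted p = 0.0269) and to 1.47 ± 0.791 from 0.573 ± 0.113 CPM (log2 fold change 1.36 ± 0.44, adjusted p = 0.0423). Cyp4f1 (-0.44 ± 0.18), Cyp4b1 (0.21 ± 0.29), Cyp2c23 (-0.36 ± 0.20) and Cyp2j4 (-0.30 ± 0.23), given as log2 fold changes, did not pass. Of the 21 fatty acid and arachidonic acid P450s listed, 17 were tested, 6 rose and 1 fell, with a median log2 fold change of -0.06 against -0.04 for all genes.

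The sex-dependent forms did not move as a block. Cyp2c7 (ENSRNOG00000021405) was 9552, 7241, 6784, 8215 and 5016 CPM in obese control livers and 1525, 1366, 2033, 1671 and 413 in lean ones (log2 fold change 2.47 ± 0.36, adjusted p = 1.12e-04), and all obese values lay above all lean values. Cyp2c11, the male-specific testosterone hydroxylase, was 59.4, 25.7, 1637, 259 and 1323 CPM in obese and 2676, 2211, 2649, 2846 and 1154 in lean livers, and did not pass (log2 fold change -1.81 ± 0.69, adjusted p = 0.0803). Obese livers 1, 2 and 4 were below every lean one, and obese controls 3 and 5 were above lean control 15 but below the other 4 lean controls. Without obese control 3 or without obese control 5 the difference passed (log2 -2.48 ± 0.72, adjusted p = 0.0299, and -2.27 ± 0.75, adjusted p = 0.0486). Cyp3a18 (ENSRNOG00000000969), a male-predominant testosterone hydroxylase, fell, with 152, 61.2, 275, 125 and 168 CPM in obese and 514, 803, 784, 542 and 255 in lean livers (log2 fold change -1.86 ± 0.40, adjusted p = 0.00351). The groups overlapped only through lean control 15 and obese control 3.

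Among the other sex-dependent forms, the male-specific Cyp2c13 (0.13 ± 0.35), the female-predominant testosterone hydroxylase Cyp2a1 (-0.07 ± 0.19) and the 3A hydroxylase Cyp3a9 (log2 fold change -1.17 ± 0.45, adjusted p = 0.0819) did not pass. Cyp3a9 passed without obese control 3 (adjusted p = 0.0119) and with DESeq2 (0.0381). Cyp2c12, the female-specific steroid hydroxylase, was 24.1 ± 17.5 CPM in obese and 10.2 ± 5.59 in lean livers and did not pass either (log2 fold change 1.31 ± 0.56, adjusted p = 0.119). Of the 4 male-predominant members tested 1 rose (Cyp4a2) and 1 fell (Cyp3a18), and of the 4 female-predominant members 1 rose (Cyp2c7). Their median log2 fold changes were -0.84 and 0.62, against -0.04 for all genes.

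**Figure D3:**
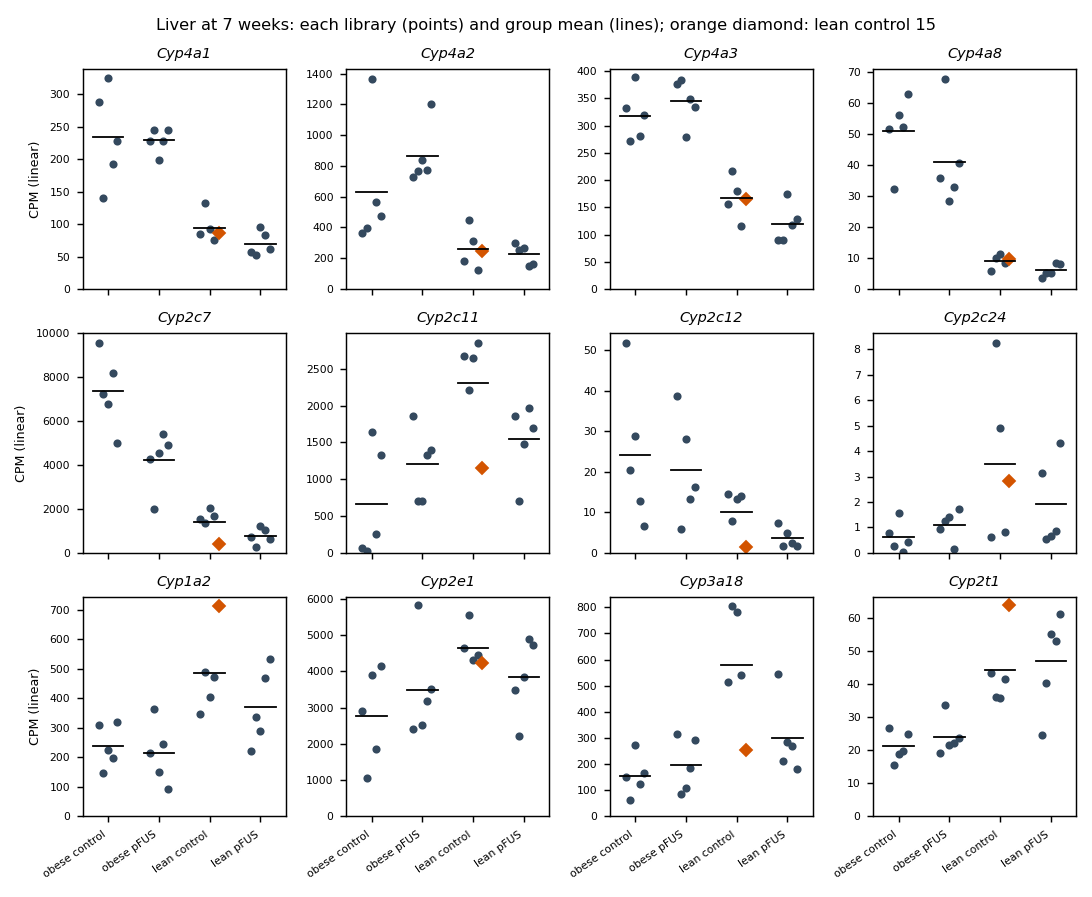
CPM of 12 members in each 7-week liver library, on linear axes that start at 0, with lines at the group mean and lean control 15 as an orange diamond. Cyp4a8 and Cyp2c7 were higher in every obese control than in every lean control, and the obese control values of Cyp2c11 ran from 25.7 to 1637 CPM.

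Among the drug-metabolising members, Cyp1a2 (ENSRNOG00000016173), which clears caffeine and aromatic amines, was 308, 146, 223, 198 and 320.2 CPM in obese and 348, 489, 405, 472 and 713 in lean livers (log2 fold change -1.09 ± 0.33, adjusted p = 0.0297). The groups did not overlap, although the call was lost without obese control 2, 3 or 4 or without lean control 15 (adjusted p = 0.0787, 0.0638, 0.0715 and 0.0822). The related Cyp1a1, low in liver at 1.39 ± 1.08 and 1.03 ± 0.987 CPM, did not pass (0.39 ± 0.56). Cyp2t1 (ENSRNOG00000028891), whose substrates are little known, was 26.7, 15.7, 19.0, 20.0 and 25.0 CPM in obese livers, and in lean ones 43.5, 36.1, 35.9, 41.5 and 64.1. It fell (log2 fold change -1.11 ± 0.24, adjusted p = 0.00411), without overlap.

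Cyp2c22 (ENSRNOG00000021924), a liver Cyp2c form, rose from 912 ± 108 to 1291 ± 252 CPM (log2 fold change 0.49 ± 0.16, adjusted p = 0.0415). Cyp2c24 (ENSRNOG00000013241), at low levels, fell from 3.48 ± 3.17 to 0.621 ± 0.599 CPM (log2 fold change -2.50 ± 0.74, adjusted p = 0.0270), with overlap. Cyp2e1 was 2899, 1062, 3901, 1869.6 and 4141 CPM in obese and 4651, 5545, 4306, 4446 and 4232 in lean livers. All its obese values were below all lean values, yet it did not pass (log2 fold change -0.76 ± 0.29, adjusted p = 0.0767). It passed without obese control 5 (adjusted p = 0.0326) and with DESeq2 (adjusted p = 0.0414). The phenobarbital-inducible Cyp2b2, at 37.3 ± 40.0 and 14.5 ± 7.40 CPM (log2 fold change 1.27 ± 0.56, adjusted p = 0.130), Cyp2d4 (-0.94 ± 0.40), the debrisoquine-type Cyp2d2 (log2 fold change -0.74 ± 0.31, adjusted p = 0.111) and Cyp3a62 (0.42 ± 0.41) did not pass.

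In all, groups did not overlap for 5 of the 40 members in the higher direction and 4 in the lower, beside 5.81% and 5.67% of all genes tested. Calls of Cyp3a18, Cyp4a8, Cyp4a1, Cyp4a3, Cyp2c7 and Cyp2t1 stood in each of the 10 fits that left out a library of these groups and the 6 other settings tried. The other 7 calls were lost in 3 to 8 of the 10 fits. Of the 6 other settings, Cyp2c22 was lost in 3, Cyp4f4 and Cyp4f37 in 2 each, and Cyp2c24, Cyp1a2, Cyp4a2 and Cyp4f17 in 1 each. Beside Cyp4a2 and Cyp1a2, the call of Cyp2c22 was lost without obese control 1, 2, 3 or 5 or lean control 11, 12 or 14 (adjusted p from 0.0536 to 0.112) and that of Cyp2c24 without obese control 2, 4 or 5 or lean control 12 (adjusted p from 0.0503 to 0.0901). Cyp4f17 was lost without obese control 1 or 2 or lean control 11 or 14 (adjusted p from 0.0628 to 0.0907), Cyp4f37 without obese control 2, 3 or 5 or lean control 11, 12, 13, 14 or 15 (adjusted p from 0.0539 to 0.132) and Cyp4f4 without obese control 1, 2, 3 or 4 or lean control 12, 14 or 15 (adjusted p from 0.0514 to 0.0913). The count of members that rose was 4 without lean control 11 or 14, beside 6.00% and 6.39% of genes, and 5 without obese control 2 or 3, beside 6.49% and 6.76%. The count that fell was 2 without obese control 2 or 4, beside 3.87% and 4.44% of genes, and 3 without lean control 12, beside 5.77%. Without lean control 15, 7 members rose and 3 fell, beside 10.6% and 6.65% of genes.

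The electron donors and regulators of P450s were measured in the same fit. Por, the reductase that serves all microsomal P450s, was 125, 83.1, 114, 121 and 230.1 CPM in obese control livers and 545, 401, 421, 583 and 1155 in lean ones. It fell (log2 fold change -2.31 ± 0.40, adjusted p = 4.82e-04) with no overlap, and so did Cyb5a (log2 fold change -0.71 ± 0.21, adjusted p = 0.0280), while Cyb5r3 did not pass. Of 19 regulators tested 3 rose and 4 fell. Cux2, a female-predominant repressor of male genes, was 39.9, 13.0, 0.617, 7.08 and 1.04 CPM in obese and 0.692, 0.672, 2.62, 2.81 and 0.436 in lean livers (log2 fold change 3.06 ± 0.92, adjusted p = 0.0290), with overlap, and Stat5b (1.03 ± 0.19) and Nr1h4, the bile acid receptor (0.63 ± 0.15), also rose. Nr1i2, which encodes PXR, fell (log2 fold change -0.83 ± 0.18, adjusted p = 0.00449), as did Cebpa (-1.34 ± 0.31) and the clock-output bZIP factors Dbp and Tef. Dbp was 3.25 to 26.2 CPM in obese control livers and 166 to 373 in lean ones. With pFUS it was 82.4 to 138 CPM in obese livers, all above the obese controls, and 92.5 to 228 in lean ones. The part of clock output in the P450 results was not tested.

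Of 22 other PPAR alpha targets tested 9 rose and none fell, with a median of 0.54. The lipid droplet coat gene Plin2 (log2 fold change 3.02 ± 0.27, adjusted p = 4.18e-07) and the peroxisomal enzyme gene Ehhadh (log2 fold change 1.04 ± 0.21, adjusted p = 0.00248) were among them. Of 9 CAR and PXR inducible genes 1 rose (Cyp2c7) and 1 fell (Cyp3a18), and of the AhR battery of 4, Nqo1 rose (log2 fold change 1.93 ± 0.37, adjusted p = 0.00145) and Cyp1a2 fell. P450s of other families gave 2 rises and 2 falls of 11 tested, the retinoic acid hydroxylase Cyp26a1 (2.07 ± 0.46) and steroidogenic Cyp17a1 (1.52 ± 0.48) up, and the bile acid enzymes Cyp7a1 (-2.77 ± 0.59) and Cyp7b1 (-1.31 ± 0.32) down. Of 21 conjugating enzymes 1 rose and 2 fell.

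Markers of cell types moved with this comparison. Macrophage markers summed to 270.5 to 445 CPM with a median of 308 in obese and 92.8 to 293 CPM with a median of 114 in lean livers, with 4 of 7 risen and none at 0. Pericentral hepatocyte markers, from the zone where Cyp1a2, Cyp2e1 and many other P450s are known to be made, summed to 389.7 to 988 CPM with a median of 536 and 829 to 960.1 CPM with a median of 919, with 2 of 8 fallen. Periportal markers summed to 8018 to 13539.6 CPM with a median of 11907 and 8447 to 12005 CPM with a median of 9505, with 3 of 9 risen and 1 fallen. Of 5 smooth muscle markers 3 fell. Their part in the P450 results was not tested.

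Ultrasound over 7 weeks in obese liver asked whether these levels change with treatment. No member of 40 passed with edgeR or with DESeq2, 3 had an unadjusted p under 0.05, and 0.397% of all genes tested passed with edgeR and 1.07% with DESeq2. Cyp2c7 was 4279, 1974, 4532, 5411 and 4902 CPM with pFUS, against 5016 to 9552 in obese controls. It was lower in mean, at 4219 ± 1326 against 7362 ± 1686 CPM, but did not pass (log2 fold change -0.91 ± 0.35, adjusted p = 0.414), and obese pFUS 9 lay inside the control range. Cyp4a8 was 35.6, 67.5, 28.3, 32.7 and 40.5 CPM with pFUS (log2 fold change -0.40 ± 0.24, adjusted p = 0.811) and Cyp4a1 229 ± 18.9 (-0.12 ± 0.19), both overlapping the controls. Cyp2c11 was 1864, 706, 709, 1331 and 1402 CPM with pFUS (log2 fold change 0.81 ± 0.67, adjusted p = 0.957).

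The low-level Cyp1a1 (log2 fold change -1.59 ± 0.58, adjusted p = 0.376) and the fatty acid hydroxylase Cyp4v3 (log2 fold change -0.50 ± 0.23, adjusted p = 0.581) were the others with an unadjusted p under 0.05. Across the 40 members log2 fold changes ran from -1.59 (Cyp1a1) to 0.81 (Cyp2c11). Cyp1a2 (-0.24 ± 0.32), Cyp2e1 (0.26 ± 0.29) and Cyp3a18 (0.27 ± 0.39) did not pass. Por was 319, 508, 253, 279 and 471 CPM with pFUS, every value above the obese controls, and did not pass (log2 fold change 1.36 ± 0.38, adjusted p = 0.172). The median of the members was 0.08 and that of all genes -0.00217.

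In lean liver the result turned on a single rat. With all libraries no member of 40 passed with edgeR, 4 had an unadjusted p under 0.05, and 0.389% of all genes passed. DESeq2 called 1, Cyp2r1, lower, beside 5.55% of all genes, so its count was below the background. Without lean control 15, 8 members rose and 3 fell, beside 19.9% and 18.8% of all genes tested. Read against those shares, the rises were near the background and the falls below it. With lean control 15 and obese pFUS 7 both left out, 8 rose and 4 fell, beside 20.7% and 19.8%. The debrisoquine-type Cyp2d2 was 1175, 1127, 1079.5, 1023 and 3021 CPM in lean controls, lean control 15 last, and 963, 1646, 1472, 1484 and 1751 with pFUS. Lean control 15 was above every other lean library, and its removal took the log2 fold change from 0.07 ± 0.31 to 0.70 ± 0.16 (adjusted p = 0.00281).

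The same held in its subfamily. Cyp2d5 was 245, 255, 228, 184 and 697 CPM in controls and 252, 387, 341, 317 and 364 with pFUS, going from 0.13 ± 0.33 to 0.85 ± 0.16 (adjusted p = 7.12e-04) on the log2 scale, and Cyp2d3 and Cyp2d4 rose by 0.80 ± 0.18 and 0.79 ± 0.27 without that library. These 4 genes are similar copies that can share reads. Cyp4f39, an omega-hydroxylase of very long fatty acids in skin, was 5.35, 7.84, 5.35, 5.15 and 32.4 CPM in controls and 8.34, 20.2, 16.2, 9.03 and 9.73 with pFUS, and went from 0.25 ± 0.51 to 1.42 ± 0.33. The leukotriene hydroxylase Cyp4f6 (0.91 ± 0.21), Cyp2t1 (0.53 ± 0.19) and Cyp2f4 (0.51 ± 0.17), related to a lung enzyme, completed the rises.

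The vitamin D 25-hydroxylase Cyp2r1 was 3.46, 4.54, 5.60, 5.53 and 1.02 CPM in lean controls and 1.65, 0.958, 1.55, 2.42 and 2.03 with pFUS. Only lean control 15 lay within the pFUS range, and the log2 fold change was -1.0 ± 0.34 (adjusted p = 0.0970) with it and -1.19 ± 0.30 (adjusted p = 0.00413) without it. Cyp2c7, at 729, 250.5, 1204, 1021 and 624 CPM with pFUS, also fell without that library (-0.85 ± 0.31), as did the fatty acid epoxygenase relative Cyp2j10 (-0.64 ± 0.22).

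**Figure D4:**
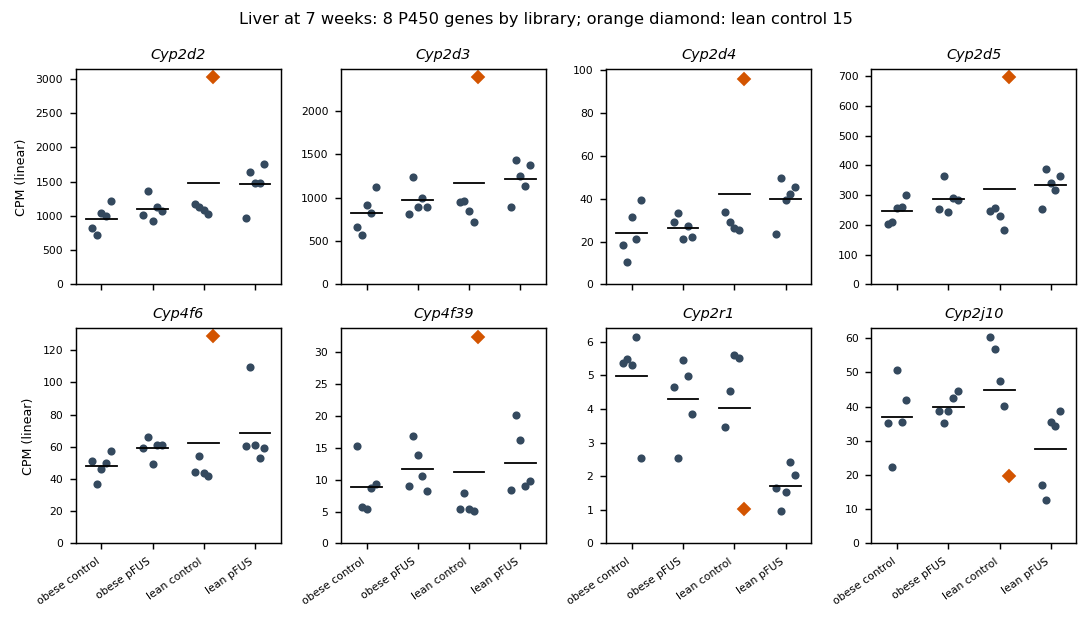
CPM of 8 members in each 7-week liver library, on linear axes that start at 0, with lines at the group mean and lean control 15 as an orange diamond. Its Cyp2d2 (3021 CPM) and Cyp2d5 (697 CPM) were the highest of the 10 lean libraries, and its Cyp2r1 (1.02 CPM) was below the other 4 controls.

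The difference between the effects, obese minus lean, passed for no member of 40 with edgeR or DESeq2, 1 had an unadjusted p under 0.05 (Cyp4f4, 0.54 ± 0.24), and 0.405% of genes passed with edgeR and 2.58% with DESeq2. Without lean control 15 it passed for Cyp2d5 alone (-0.72 ± 0.22, adjusted p = 0.0269), beside 11.6% of genes called lower. Without lean control 15 and obese pFUS 7 together, 1 member was called higher (Cyp2r1, 1.02 ± 0.37) and 5 lower, beside 13.1% and 14.3% of genes. The 5 were Cyp2d2 (-0.69 ± 0.22), Cyp2d3 (-0.75 ± 0.24), Cyp2d5 (-0.82 ± 0.21), Cyp2c23 (-0.60 ± 0.22) and Cyp4f39 (-1.27 ± 0.44). With all libraries none of these 6 passed.

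In intestine, where P450s meet compounds taken up from food, levels varied widely between rats of a group. For obese against lean controls no member of 31 passed with edgeR, 7 had an unadjusted p under 0.05, and 0.0136% of genes passed. DESeq2 called 1, Cyp4f5, higher, beside 0.632% of genes. The leukotriene hydroxylase Cyp4f5 was 113, 93.8, 118, 248 and 79.1 CPM in obese controls and 39.0, 54.1, 33.4, 97.4 and 88.8 in lean ones (log2 fold change 1.08 ± 0.31, adjusted p = 0.203), with overlap. Its relative Cyp4f6 was 41.7, 43.7, 48.2, 50.6 and 28.7 CPM in obese controls, and in lean ones 20.6, 30.5, 22.7, 26.8 and 35.2 (log2 fold change 0.66 ± 0.18, adjusted p = 0.201). Without lean control 15, 2 members rose, Cyp4f6 (0.80 ± 0.18) and Cyp4f37 (2.26 ± 0.42), beside 0.729% of genes. The members' median log2 fold change was 0.48 and that of all genes -0.01.

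Cyp1a1, which AhR ligands in the diet induce in gut, was 20.4, 10.1, 9.88, 117 and 124 CPM in obese controls and 447, 204, 338, 87.0 and 411 with pFUS. Its pFUS mean of 297 ± 150.0 CPM stood against 56.3 ± 58.9, with obese pFUS 9 inside the control range, and the difference did not pass (log2 fold change 2.65 ± 0.92, adjusted p = 0.156). In lean rats it was 17.8, 11.8, 26.6, 3.41 and 121 CPM in controls and 127, 215 and 219 with pFUS (log2 fold change 2.39 ± 0.99, adjusted p = 0.430). All 3 treated values lay above all 5 controls, of which lean control 15 was the highest.

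For pFUS in obese intestine no member of 31 passed with edgeR, 5 had an unadjusted p under 0.05, and 0.0612% of genes passed. DESeq2 called 1, Cyp4b1, higher, beside 1.99% of genes, a count near the background. Cyp4b1, which oxidises fatty acids and protoxins, was 82.9, 33.6, 30.7, 141 and 182 CPM in controls and 294, 143, 173, 249 and 206 with pFUS (log2 fold change 1.46 ± 0.50, adjusted p = 0.152 by edgeR and 0.0459 by DESeq2). Cyp3a9 was 380.2, 323, 599, 813 and 445 CPM in controls and 832, 1149, 883, 1342 and 1309.9 with pFUS, without overlap, and did not pass (log2 fold change 1.36 ± 0.67, adjusted p = 0.286). Cyp4f17 was without overlap in the other direction (3.64 ± 0.990 against 7.14 ± 1.40 CPM, log2 fold change -0.70 ± 0.29, adjusted p = 0.207). Of the 31 members, only these were without overlap, 1 in each direction. The share of all genes without overlap was not set beside them, so no more is read from it.

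For pFUS in lean intestine no member of 31 passed with edgeR or DESeq2, and 0.00680% of genes passed with edgeR and 0.129% with DESeq2. An unadjusted p under 0.05 was found for 13 members, without the share of all genes at that threshold beside it. Groups did not overlap for 4 members in the higher direction (Cyp1a1, Cyp2c11, Cyp3a18 and Cyp4b1), beside 2.14% of genes, and for 1 in the lower direction, beside 5.55%. That was Cyp2c22, at 1.24, 0.902, 1.44, 1.33 and 0.302 CPM in controls and 0.271, 0.143 and 0.0722 with pFUS (log2 fold change -2.53 ± 0.72, adjusted p = 0.416), few counts in each library. Cyp3a18 was 63.3, 129.9, 58.0, 77.3 and 208 CPM in controls and 265, 236 and 287 with pFUS (log2 fold change 1.33 ± 0.34, adjusted p = 0.416). Without lean control 15, 4 members rose, beside 1.13% of genes: Cyp3a18 (1.75 ± 0.27), Cyp2d2 (1.52 ± 0.31), Cyp2j4 (1.56 ± 0.37) and Cyp4b1 (2.26 ± 0.52). Cyp2j4 was 78.0, 343, 175, 97.9 and 483 CPM in lean controls and 466, 548 and 437 with pFUS, the last control near the treated rats. The difference of effects passed for no member of 31 with either tool, 1 had an unadjusted p under 0.05 (Cyp2c22, 2.61 ± 0.91), and 0.00680% of genes passed with edgeR and 0.367% with DESeq2.

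Members together were 0.243% ± 0.0654 (SD) of counts in obese control, 0.360% ± 0.0229 in obese pFUS, 0.161% ± 0.0906 in lean control and 0.334% ± 0.0230 in lean pFUS intestine. Enterocyte markers also had higher medians in both pFUS groups. They summed to 10824 to 24517 CPM with a median of 12757 in obese control, 16467 to 24254 CPM with a median of 21234 in obese pFUS, 3767 to 22738 CPM with a median of 8535 in lean control and 21257 to 26912 CPM with a median of 21590.5 in lean pFUS rats, with none of the 6 found at 0. Smooth muscle markers were 2075 to 4217 CPM with a median of 3293 in lean controls and 1761 to 1865 CPM with a median of 1851 in lean pFUS rats. Their part in the P450 levels was not tested.

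In obese kidney no member of 27 passed for pFUS with edgeR or DESeq2, 1 had an unadjusted p under 0.05, and 0.105% of genes passed with edgeR and 0.726% with DESeq2. Cyp4a2 was 10101, 7229, 10423, 6309 and 2824 CPM in controls and 6344, 4933, 8286, 6931 and 5723 with pFUS (log2 fold change -0.12 ± 0.32, adjusted p = 0.941). Cyp2c23 was 3191, 1147, 2075, 1989 and 1071 CPM in controls, and with pFUS 1593, 1642, 2210.2, 2171 and 1858 (log2 fold change 0.04 ± 0.30, adjusted p = 0.976). For both leading kidney members every pFUS value lay inside the control range. Cyp4a8 (0.11 ± 0.33), Cyp2e1 (-0.06 ± 0.31), Cyp4a3 (-0.06 ± 0.27) and Cyp4a1 (-0.19 ± 0.18) did not pass. Cyp1b1, an oestrogen hydroxylase of stromal cells, was 3.05, 67.9, 3.95, 25.2 and 6.17 CPM in controls and 4.95, 5.32, 12.6, 3.60 and 3.19 with pFUS (log2 fold change -1.62 ± 0.71, adjusted p = 0.658). Obese control 2 held its highest value, and tubule injury markers summed to 329 to 21719.7 CPM with a median of 738 in controls and 380.3 to 2405 CPM with a median of 553 with pFUS. Their part was not tested.

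After 3 days in obese liver no member of 37 passed for x1 or x10 with edgeR, with 3 and 5 at an unadjusted p under 0.05, beside 0.593% and 1.19% of all genes called. The 2 comparisons share their controls. DESeq2 called Cyp4v3 lower for x1, beside 1.08% of genes, and Cyp2a1 and Cyp4f39 lower for x10, beside 1.62%. Cyp4v3 was 366, 323, 316 and 284 CPM in controls, 234, 262, 222 and 258 with x1 (log2 fold change -0.39 ± 0.11, adjusted p = 0.106) and 270.0, 267, 293 and 323 with x10 (log2 fold change -0.20 ± 0.11, adjusted p = 0.493). The x1 values were all below the controls, and the x10 values overlapped them. Of the 37 members, 2 lay wholly below the controls with x1 and 3 with x10. The share of all genes without overlap was not set beside these counts.

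Cyp4f39 was 7.09, 8.02, 14.3 and 9.71 CPM in 3-day controls and 3.92, 3.15, 6.56 and 4.78 with x10 (log2 fold change -1.12 ± 0.27, adjusted p = 0.0568), all treated values below all controls. It passed without x10 rat 39 (-1.35 ± 0.28, adjusted p = 0.0329) or control 41 (-1.24 ± 0.27, adjusted p = 0.0499). For x1 the members' log2 fold changes ran from -0.57 (Cyp2r1) to 1.23 (Cyp1a1), and for x10 from -1.12 (Cyp4f39) to 0.83 (Cyp1a1). Cyp4a8, Cyp4a1, Cyp2c7 and Cyp2c11 passed at neither setting. Por, at 214 ± 80.0 CPM with x1 and 221 ± 56.6 with x10 against 75.0 ± 31.6 in controls, did not pass either (adjusted p = 0.0786 and 0.0639).

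The DIO-stz controls allowed a check of the sex-dependent members. Between 2 female and 2 male livers 1 of 38 tested members rose and 6 fell in females, beside 0.767% and 0.639% of genes. Cyp2c12 (ENSRNOG00000047945) was 3391 and 2459 CPM in females and 31.9 and 45.1 in males (log2 fold change 6.12 ± 0.82, adjusted p = 0.00439). Cyp2c11 (ENSRNOG00000052810) was 0.572 and 0.0577 in females and 1163 and 1787 in males (log2 fold change -12.32 ± 0.68, adjusted p = 2.13e-05), and Cyp2c13 (ENSRNOG00000049464) 0.635 and 0.173 CPM in females against 742 and 1536 in males (log2 fold change -11.56 ± 0.69, adjusted p = 2.65e-05). The male forms were under 1 CPM in both females, and Cyp2c12 was low in both males. Fold changes against values near 0 depend on the fit's prior count.

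**Figure D5:**
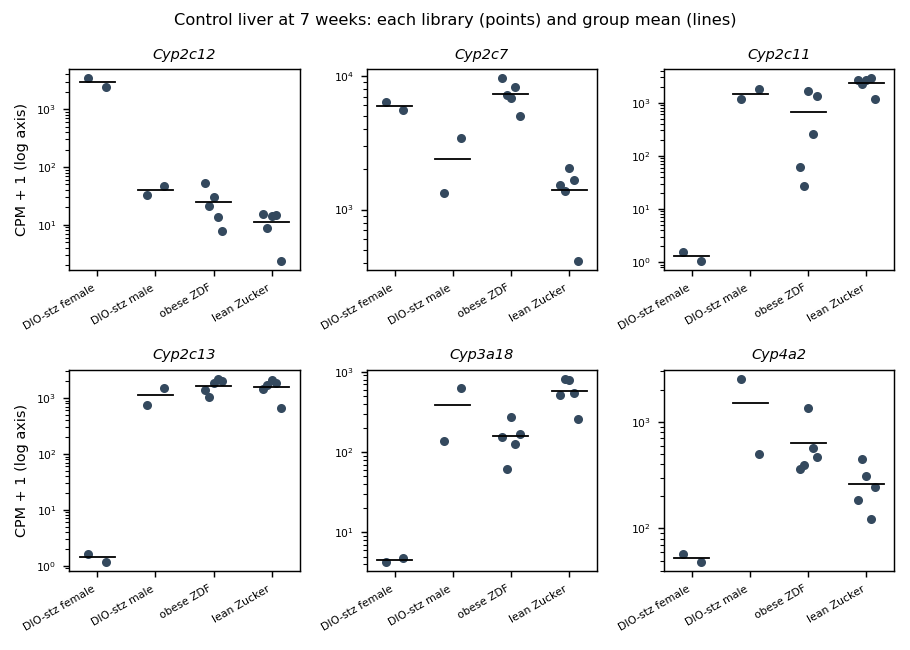
CPM of sex-dependent members in DIO-stz control livers and in 7-week obese and lean male controls, each point a library and each line a group mean, on log axes of CPM plus 1. Cyp2c12 was at least 2459 CPM in both females and at 45.1 CPM or less in both DIO-stz males.

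Cyp3a18 was 3.30 and 3.81 CPM in females and 137 and 627 in males (log2 fold change -6.81 ± 0.89, adjusted p = 0.00399). Cyp4a2, the male-predominant Cyp4a form, was 56.3 and 47.6 CPM in females against 2510.4 and 496 in males (log2 fold change -5.05 ± 0.82, adjusted p = 0.0150). Cyp2c22 was 127 and 81.8 against 643 and 447 CPM (log2 fold change -2.54 ± 0.34, adjusted p = 0.00487), and Cyp3a62, a 3A hydroxylase, 1.40 and 1.67 against 4.76 and 6.48 CPM (log2 fold change -1.98 ± 0.39, adjusted p = 0.0452). Females were below males in each. All 4 listed male-predominant members tested fell in females. Calls of Cyp2c11 and Cyp2c13 stood whichever library was left out, the lone rat of a sex then being taken to vary like the other groups. Cyp2c12 was lost without male 5 or 6 (adjusted p = 0.0658 and 0.0565). Cyp3a18 was lost without female 3 or 4 (0.0807 and 0.0695), Cyp4a2 likewise (0.174 and 0.194), Cyp2c22 without female 4 (0.0941), and Cyp3a62 in each of the 4 fits (adjusted p from 0.123 to 0.401).

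Female-predominant forms other than Cyp2c12 did not pass. Cyp2c7 was 6396 and 5513 CPM in females and 1324 and 3417 in males (log2 fold change 1.24 ± 0.57, adjusted p = 0.549), and Cyp3a9 156 ± 3.04 and 60.7 ± 45.5 (log2 fold change 1.29 ± 0.44, adjusted p = 0.312). The Cyp2c7 levels of the 7-week obese males, 5016 to 9552 CPM, come from another cohort, and no test between cohorts was made. With 2 rats a sex, members that did not pass may still differ.

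In kidney 2 of 29 tested members fell in females, beside 0.267% of genes. Cyp2d5 was 3.01 and 1.65 CPM in females and 59.2 and 222 in males (log2 fold change -6.03 ± 0.67, adjusted p = 0.00700) and Cyp2d3 8.86 and 4.74 against 55.0 and 178 (log2 fold change -4.22 ± 0.56, adjusted p = 0.0143). Both calls were lost without female 4 (adjusted p = 0.0913 and 0.145), and that of Cyp2d3 also without female 3 (0.0554). Without male 5, Cyp2d4 joined them. Cyp2b2 was 0.886 and 1.58 CPM in females with no count in males, at least 15.4-fold higher over a floor of 3 counts in the male group, and did not pass. Cyp4a2 was 3242 and 2921 CPM in females and 4973 and 9409.7 in males (log2 fold change -1.38 ± 0.45, adjusted p = 0.508).

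In intestine no member of 35 passed between the sexes with edgeR, 14 had an unadjusted p under 0.05, and 0.0522% of genes passed. DESeq2 called 7 lower in females, beside 1.94% of genes. Cyp4f6 was 26.8 and 26.8 CPM in females and 58.8 and 58.0 in males (log2 fold change -1.40 ± 0.24, adjusted p = 0.141), and Cyp2s1, an AhR-inducible epithelial form, 2.66 and 2.60 against 87.6 and 42.2 (log2 fold change -4.86 ± 1.17, adjusted p = 0.219). Neither gene overlapped between the sexes, but with 2 rats a sex this was common among the members. Of the 35 members, 13 did not overlap in the lower direction and 6 in the higher. The share of all genes without overlap was not set beside these counts. In lean Zucker control intestines Cyp2s1 was lowest in the high-Fabp6 libraries 11 and 14 (2.33 and 1.96 CPM), the others holding 23.2 to 77.5. In obese controls it was lowest in the high-Fabp6 library 1 (17.0 CPM). The part of gut position in the DIO-stz intestines was not tested.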

How the data were processed

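Rat tissue was kept in RNAlater and sequenced from stranded libraries, made from mRNA except in pancreas and adipose tissue, which had a total RNA kit, per the labels' protocols. Per the submitters' processing notes, STAR 2.5.3a aligned reads to Rnor_6.0 and RSEM counted them, with the annotation release not given in the sources used here. Expected counts were deposited by the authors as whole numbers. RSEM assigns reads shared by similar genes by estimate. The members, lists and rules were chosen with earlier results of these data known.

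Levels are CPM, a gene's count over the library's total count times 1000000. Tests used edgeR 4.0.16 (R 4.3.3), TMM normalization, genes kept by filterByExpr at a minimum count of 10, and the robust quasi-likelihood test, with Benjamini-Hochberg adjustment over all genes tested and a threshold of 0.05. Standard errors are the absolute log2 fold change over the root of F. Counts of members at an unadjusted p under 0.05 have no share of all genes at that threshold beside them. The percentages given with them are for adjusted p, and nothing is read from those counts. The 4 groups at 7 weeks were fitted together in liver and in intestine, as were the 3-day livers. The DIO-stz and DIO Diet Resistant groups were fitted together by tissue. Of the 14 comparisons, 2 were differences between effects. The alternatives tried were RLE factors, no filter on low counts, DESeq2 1.42.0, the older quasi-likelihood method (chosen after seeing the data), only the groups compared, and leaving out libraries. For levels, TMM-scaled library sizes were also tried. Scripts were tested on simulated counts with the real means, library sizes and dispersions. For pFUS, 35% of 2-fold changes were recovered in obese liver, 44% in lean liver and 31% in obese kidney. In intestine it was 62% (obese) and 46% (lean), and at 3 days 80% (x1) and 75% (x10). The difference of effects in liver gave 15%, and female against male liver 0% (7% at 4-fold). Members that did not pass may still differ.

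Named with values were the members past the threshold, textbook members where a group's result turned on them, and up to 6 genes per list. A planned rule on levels per kilobase was not applied, since gene lengths were not used here, so shares of counts stand in its place. Members flagged by DESeq2 or by non-overlap alone were chosen after their values were seen. Of 156 pairs of libraries within groups none were identical.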

Additional observations from a re-analysis of the deposited data

Results flagged for a closer look

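Of 196 groups of 5 values checked in the 7-week obese and lean libraries (named members that reach 10 CPM), 24 had a library with a gap to the others beyond Dixon's 95% critical value, and chance flags about 1 in 20 groups. In liver 8 of the 24 were lean control 15. Its Cyp2d2 was 3021 CPM with the other lean controls at 1023 to 1175, its Cyp2d3 2389 (715 to 957), its Cyp2d4 96.0 (25.2 to 33.6) and its Cyp2d5 697 (184 to 255). Its Cyp2c23 was 1956 CPM (1378 to 1524), its Cyp2t1 64.1 (35.9 to 43.5), its Cyp4f6 129 (41.9 to 54.1) and, in the other direction, its Cyp2a1 629 (1167 to 1266). Cyp4a2 stood high in obese control 3 at 1365 CPM (363 to 565 in the others) and in obese pFUS 10 at 1204 (727 to 838). In lean pFUS livers Cyp3a18 was 543 CPM in rat 16 (183 to 286) and Cyp4f6 109.7 in rat 17 (53.3 to 61.1).

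In kidney the control values that stood apart were Cyp2c11 at 18.9 CPM in rat 3, Cyp2t1 at 19.6 and Cyp4f6 at 39.0 in rat 1, and Cyp4f17 at 14.6 in rat 2. With pFUS they were Cyp1b1 at 12.6 CPM in rat 8, and low Cyp2d2 (46.3) and Cyp2d5 (3.58) in rat 7, where the other pFUS kidneys held 74.9 to 80.2 and 22.0 to 28.9. In intestine Cyp2c24 was 94.8 CPM in obese control 1 and 173 in lean control 14, which are also libraries with high Fabp6. Cyp4f5 was 248 CPM in obese control 4 and 189 in obese pFUS 10, and Cyp1a1 was 121 in lean control 15 with the other lean controls at 3.41 to 26.6.

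The treated DIO-stz and DIO Diet Resistant rats were compared with no group, but they added to the estimate of the spread between the sexes. Of their values, 13 were at least 10 CPM and at least 10 times the highest DIO-stz control of the same sex and tissue. Cyp4a8 was 11.0 and 10.7 CPM in livers of pFUS males 9 and 10, with male controls at 0.309 and 0.348. In kidney Cyp2c11 was 40.8, 57.0 and 42.5 CPM in pFUS males 7, 8 and 10 (controls 0.0962 and 0.976), and Cyp2c24 was 35.1 and 29.8 in males 7 and 10 (controls 0 and 1.32). Cyp2b2 was 140.9 CPM in the kidney of pFUS female 11 (controls 0.886 and 1.58). In the intestine of that female Cyp2c23 was 41.3 CPM (0 and 0.634), Cyp1a1 40.8 (0.845 and 1.70) and Cyp2s1 139 (2.60 and 2.66). Cyp2s1 was also 65.9 and 110 CPM in the Diet Resistant females. None of these differences was tested, nor was the part of gut position in the intestine values.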

How the results depend on the processing

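Calls lost, gained or reversed are given with their setting, and the cause was not tested. Percentages are the share of all genes tested that were called the same way in the same fit. The pair of lean control 15 and obese pFUS 7 was set from an earlier account of these data and is not the pair farthest from their groups. With only the groups compared, 5 members rose (5.45%) and 3 fell (3.24%) between obese and lean control livers. With DESeq2 8 fell (9.56%), and without that pair 3 fell (7.35%). Leaving out each library in turn gave 4 to 8 rises (6.00% to 10.6%) and 2 to 6 falls (3.87% to 7.68%). For pFUS in lean liver, DESeq2 gave 1 fall (5.55%), the fit without that pair 8 rises (20.7%) and 4 falls (19.8%), and leaving out each library 0 to 8 rises (0% to 19.9%) and 0 to 3 falls (0% to 18.8%). For the difference of effects in liver, the fit without that pair gave 1 higher (13.1%) and 5 lower (14.3%), and leaving out each library 0 to 1 lower (0.157% to 11.6%). In intestine DESeq2 gave 1 rise each for obese against lean (0.632%) and for pFUS in obese rats (1.99%), and leaving out each library gave 0 to 2 rises for obese against lean (0.00681% to 0.729%) and 0 to 4 for pFUS in lean rats (0% to 1.13%). At 3 days DESeq2 gave 1 fall for x1 (1.08%) and 2 for x10 (1.62%), and leaving out each library 0 to 1 fall for x10 (0.200% to 0.596%). Between the sexes, liver gave 2 rises with DESeq2 (1.40%), 2 rises (0.413%) and 3 falls (0.396%) with only the groups compared, and 0 to 1 rises (0.339% to 0.370%) and 2 to 5 falls (0.287% to 0.528%) on leaving out a library. Kidney gave 1 rise with DESeq2 (0.413%), 0 falls with only the groups compared (0%) and 0 to 3 on leaving out a library (0.0134% to 0.389%). Intestine gave 7 falls with DESeq2 (1.94%), and 1 rise (0.736%) and 3 falls (1.04%) with only the groups compared.

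Signs reversed for the following members. The difference of effects in liver was -0.69 for Cyp2d2 and -1.27 for Cyp4f39 without lean control 15 and obese pFUS 7. On leaving out a library it ran from -0.59 to 0.17 for Cyp2d2, -0.72 to 0.16 for Cyp2d5, -0.64 to 0.15 for Cyp2d3 and -1.10 to 0.39 for Cyp4f39. The log2 fold change for pFUS in lean liver ran from -0.061 to 0.70 for Cyp2d2, -0.032 to 0.85 for Cyp2d5, -0.074 to 1.42 for Cyp4f39, -0.16 to 0.79 for Cyp2d4 and -0.053 to 0.91 for Cyp4f6. No paired analysis was possible because the groups compared hold different rats with different numbers. Scaling by TMM moved 6 of 275 levels by more than 1 SD. Low members (Cyp4f37, Cyp2c24, Cyp2r1) rest on few counts, and 2 rats a sex limit that comparison most.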

Other observations

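Livers treated for 4 weeks had no control of their own and are given as values. Cyp4a8 was 1.84, 11.0, 5.50 and 5.06 CPM with AM & PM x1, 14.8, 12.5, 5.82 and 7.02 with AM only x10 and 7.92, 4.96, 8.55 and 2.20 with AM & PM x10. The 3-day obese controls held 2.70, 3.80, 1.63 and 5.27 CPM of this gene, while the 7-week obese controls held 32.3 to 62.8 and the 7-week lean controls 5.91 to 11.2. Cyp2c7 was 4055 to 4438, 4412 to 4945 and 3259.6 to 4073 CPM in those 4-week groups and 3520.0 to 5209 in the 3-day controls. Cyp2c11, the male-specific form, was 868, 2334, 1489 and 2898 CPM in the 3-day obese controls, against 25.7 to 1637 in the 7-week obese controls. Ages are not in the labels, and no test across these experiments was made.

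In DIO-stz males Cyp4a1 was 861 and 861 CPM in the control livers and 213, 193, 245 and 222 with pFUS, and Cyp4a8 went the other way, at 0.348 and 0.309 and 8.22, 9.00, 11.0 and 10.7 CPM. Neither set overlapped, and the difference was not tested. Cyp2c12 was 3316 CPM in the pFUS female and 4222 and 2238 in the Diet Resistant females.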
